A study of Mus musculus with 20 samples.

Results

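The genes described here encode adaptors and brakes of T cell receptor (TCR) signalling. They are Lat, Lcp2, Themis, Cd5, Cd6, Cblb, Ptpn22, Ptpn6, Ubash3a and Dgka. The study mapped the binding of Bcl11b, a transcription factor needed for T cell development, and of Foxp3, the transcription factor of regulatory T (Treg) cells, in sorted mouse CD4+ T cells with ChIP-seq, the sequencing of DNA pulled down with an antibody to the factor. The authors deposited 12 lists of mm10 genomic regions, 3 for each of 4 pairwise comparisons, in which a region is specific to one set, common, or specific to the other. A region was taken as a member where its centre was nearest to 1 of the 10 genes, at distance 0 inside the gene and at most 100 kb away. This gave 42 of 22081 distinct regions.

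All mice were C57BL/6, and cells were sorted from draining lymph nodes and spleen. Wild-type (WT) Treg cells were CD4+YFP+ cells with the Foxp3-IRES-YFP-Cre allele (3 Bcl11b and 2 Foxp3 libraries). Cells labelled Tn carried the same allele and the same sort label (3 Bcl11b libraries), and the labels do not expand the name. Bcl11b-KO Treg cells were CD4+YFP+ cells with Bcl11b f/f and Foxp3-IRES-YFP-Cre (2 Foxp3 libraries), so that Cre is driven from the Foxp3 locus. KIKO cells were CD4+GFP+ cells with Foxp3-GFPKO, described as Treg cells devoid of Foxp3 (2 Bcl11b libraries), and so carry another reporter allele than the WT cells. Not given in the sources used here are ages and treatments. A further 8 libraries were input DNA.

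Engagement of the TCR activates the kinases Lck and Zap70, which phosphorylate the membrane adaptor LAT. LAT and the cytosolic adaptor SLP-76, encoded by Lcp2, then assemble the complex that activates phospholipase C gamma and Ras, and Themis tunes the signal during selection in the thymus and in peripheral T cells. Brakes act at several steps. Cd5 and Cd6 are related scavenger receptors that bind inhibitory effectors, Ptpn22 and Ptpn6 (SHP-1) are tyrosine phosphatases, Cblb is a ubiquitin ligase, Ubash3a is a member of the Sts phosphatase family, and Dgka removes diacylglycerol. Treg cells depend on TCR signals for their suppressive function.

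Each list is 1 class of a pairwise comparison of groups and holds positions without a score, count or replicate value. No spread between replicates and no test between conditions can therefore be given, and the read depth behind each region is unknown. Intervals below are Wilson 95% intervals of shares and cover counting error only. Regions of 1 gene are not independent of each other, and the members are not replicates of a condition. Below, a Foxp3 region listed for WT cells only is called lost in Bcl11b-KO cells, and a Bcl11b region listed for WT Treg only is called lost in KIKO cells.

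Regions covered an annotated start site or the bases next to it at 7 of the 9 members with an entry in the RefSeq promoter table, namely Lat, Lcp2, Themis, Cd5, Cblb, Ptpn22 and Ubash3a, against 23.1% of the 27025 genes of the table. Cd6 has no entry. Of the 42 region centres 7 (16.7%, 8.32 to 30.6) lay within 1 kb of a start site, against 33.6% of all regions. Shown are 4 promoters that differ in which factor was listed there and in whether Foxp3 was lost. Each is the 250 bases that end just before the start site, 5′ to 3′ in the direction of the gene, from RefSeq (GRCm38.p6, the assembly with mm10 coordinates). Capitals mark the bases inside the deposited region. Lat is at chr7:126369569-126369818 on the minus strand (both factors, Foxp3 common to WT and Bcl11b-KO). Ptpn22 is at chr3:103860027-103860276 on the plus strand (both factors, Foxp3 common). Cd5 is at chr19:10738975-10739224 on the minus strand (both factors, Foxp3 lost). At Lat, WT Treg Bcl11b was listed in all 3 comparisons that include it, at Ptpn22 in 2 and at Cd5 in 1. Themis is at chr10:28668110-28668359 on the plus strand (Foxp3 only, lost).
Lat: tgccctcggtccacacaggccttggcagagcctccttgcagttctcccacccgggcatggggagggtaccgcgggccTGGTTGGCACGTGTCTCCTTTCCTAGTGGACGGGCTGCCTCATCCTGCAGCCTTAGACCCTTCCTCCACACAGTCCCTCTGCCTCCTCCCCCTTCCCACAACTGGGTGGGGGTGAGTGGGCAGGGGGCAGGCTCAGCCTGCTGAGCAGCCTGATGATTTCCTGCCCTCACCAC
Ptpn22: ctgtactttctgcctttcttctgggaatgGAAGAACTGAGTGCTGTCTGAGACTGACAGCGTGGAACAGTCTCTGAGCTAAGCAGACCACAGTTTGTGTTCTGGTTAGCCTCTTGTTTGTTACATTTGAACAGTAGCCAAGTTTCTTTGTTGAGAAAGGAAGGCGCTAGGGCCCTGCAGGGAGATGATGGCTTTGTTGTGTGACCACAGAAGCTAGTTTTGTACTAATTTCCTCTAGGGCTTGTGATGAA
Cd5: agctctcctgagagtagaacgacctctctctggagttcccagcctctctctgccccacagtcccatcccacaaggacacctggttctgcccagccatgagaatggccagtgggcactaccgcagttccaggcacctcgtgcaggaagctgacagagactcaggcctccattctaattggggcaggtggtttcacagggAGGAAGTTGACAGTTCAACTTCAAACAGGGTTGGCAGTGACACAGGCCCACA
Themis: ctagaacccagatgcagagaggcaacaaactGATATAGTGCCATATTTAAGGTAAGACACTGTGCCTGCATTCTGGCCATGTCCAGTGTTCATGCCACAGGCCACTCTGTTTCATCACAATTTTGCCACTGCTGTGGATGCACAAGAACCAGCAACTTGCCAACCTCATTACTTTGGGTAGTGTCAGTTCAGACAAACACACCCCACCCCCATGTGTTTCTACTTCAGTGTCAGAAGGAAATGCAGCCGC
Of these bases, 173 at Lat, 221 at Ptpn22, 52 at Cd5 and 219 at Themis lay inside the region. At each of these genes the region reached past the start site into the gene.

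The full windows of the table, 250 bases before to 50 after a start, were searched on both strands for 4 exact motifs. GTAAACA (forkhead) was in none of the 14 windows of the 9 members and in 3.65% of all 32851 windows. CCGGAAG (Ets) was in none and in 8.86% of all. TGTGGTT (Runx) was in 1 window and in 5.27% of all, and TGACCA (Bcl11) was in 1 window and in 13.6% of all. In the 6963 windows of the table that a region overlapped, the shares were 3.02% for GTAAACA, 25.5% for CCGGAAG, 4.06% for TGTGGTT and 11% for TGACCA. With 14 windows, a count of 0 has a Wilson interval up to 21.5%. The windows are not independent, since those of Themis overlap each other, as do some of Dgka. Those of Ptpn6, of Dgka and of the other Ptpn22 start overlapped no region. Both matches were in the printed Ptpn22 window, TGACCA on the gene's strand from base 201 and TGTGGTT on the opposite strand from base 258, past the part printed, and they did not overlap. A match is a description of letters, and no match says only that these letters are not in the window. The CG dinucleotide was sparse in several bound windows, with 0 at Lcp2, 1 at the upstream Themis start and 3 at Cd5 and at the printed Ptpn22 start, against a median of 7 over all windows. Ubash3a had 6, Lat 10 and Cblb 17. Member windows without a region ran from 4 to 28, both at Dgka. CG was not counted over the bound windows of the whole table, so a link of CG to binding was not tested.

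All 10 genes carried at least 1 region, against 50.1% of 21900 protein-coding genes. WT Foxp3 was listed at all 10 (41.6% of genes), and WT Treg Bcl11b at 9 (28.7% of genes), with Cblb the exception. At 5 genes, Lat, Lcp2, Themis, Cd5 and Dgka, at least 1 region was listed for WT Treg Bcl11b in all 3 comparisons that include it (19.6% of genes). Tn Bcl11b was listed at the same 9 genes (19.9% of genes), and KIKO Bcl11b at Lcp2 and Themis, 2 genes (9.32% of genes). Foxp3 in Bcl11b-KO cells was listed at 9 genes, all but Dgka (35.4% of genes). A region common to Bcl11b and Foxp3 was listed at 7 genes (17.3% of genes), namely Lat, Lcp2, Cd5, Ptpn22, Ptpn6, Ubash3a and Dgka. Counts ran from 1 at Dgka to 8 at Cd5, with a median of 4.5, and 0.616% of protein-coding genes had 8 or more. Of the 42 centres, 28 (66.7%, 51.6 to 79.0) fell inside the gene, against 60.4% of all regions. Those at most 1 kb from any gene end numbered 8 (19.0%, 9.98 to 33.3), against 37.9% of all regions. The most distant member region lay 18.2 kb from its gene. The closest call between neighbours was the Dgka region, 1.3 kb from Dgka and 1.5 kb from Pym1.

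**Figure D1:**
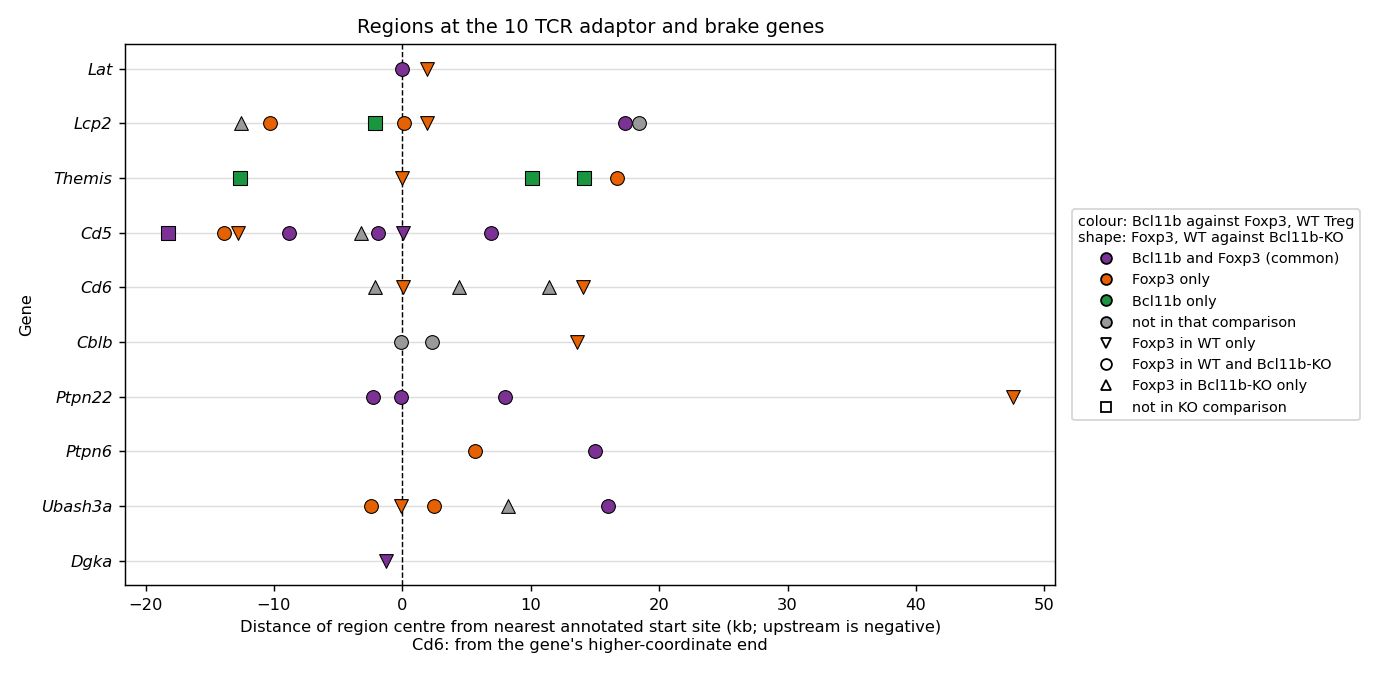
Each point is 1 of the 42 regions, placed by the distance of its centre from the nearest annotated start site of its gene (x axis, kb, upstream negative, Cd6 from its higher-coordinate end). Colour gives the class in the comparison of Bcl11b and Foxp3 and shape that of Foxp3 between WT and Bcl11b-KO. Bcl11b-only regions are seen at Lcp2 and Themis, and 3 of the 5 Cd6 regions are upward triangles.

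Among the adaptors, Lat (gene 16797, chromosome 7, 126363827 to 126369705) had 2 regions. The one at 126369393 to 126369741, centred 0.001 kb from the start site, was listed for Bcl11b and for Foxp3. There Bcl11b was common to Treg and Tn cells and lost in KIKO cells, while Foxp3 was common to WT and Bcl11b-KO cells. The region at 126367523 to 126367742, 1.94 kb downstream of the start, was listed for Foxp3 only and was lost in Bcl11b-KO cells. The 2 Lat regions thus fell in opposite Foxp3 classes, with centres 1.93 kb apart.

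Lcp2 (gene 16822, chromosome 11, 34046928 to 34092281) had 7 regions over 31.3 kb. The region inside the gene at 34064119 to 34064454, 17.4 kb downstream of the start, was common in all 4 comparisons, the only member region of that kind. A Bcl11b-only region at 34044712 to 34044909, 2.12 kb upstream, was Treg-specific against Tn and lost in KIKO cells. Foxp3-only regions stood on both sides of it. Those at 34036546 to 34036765 (10.3 kb upstream) and at 34046907 to 34047206 (the start site) were common to WT and Bcl11b-KO, and the one at 34048747 to 34048966 (1.93 kb downstream) was lost. The region at 34034215 to 34034490, 12.6 kb upstream, was listed for Bcl11b-KO Foxp3 only. The region at 34065196 to 34065471, 18.4 kb downstream, was common to WT and Bcl11b-KO Foxp3 but was not listed when Foxp3 was compared with Bcl11b. Every type of Foxp3 outcome was thus seen at this gene, and 1 of its regions was listed for Bcl11b without Foxp3.

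Themis (gene 210757, chromosome 10, 28668360 to 28883820) was the member at which the factors were listed at separate sites, with 3 Bcl11b-only and 2 Foxp3-only regions and none in common. Of the 1008 protein-coding genes with both kinds, 695 had no common region, and these made up 3.17% of all protein-coding genes. Genes with 3 or more Bcl11b-only regions made up 0.119%. The Foxp3-only region at the start site, 28668141 to 28668498, was lost in Bcl11b-KO cells, and the one at 28684981 to 28685200, 16.7 kb downstream, was common. The Bcl11b regions differed among themselves. The one at 28655637 to 28655834, 12.6 kb upstream, was Treg-specific and lost in KIKO cells. The one at 28678424 to 28678621, 10.1 kb downstream, was common with Tn and lost in KIKO cells, and the one at 28682418 to 28682615, 14.1 kb downstream, was common with both. The nearest Bcl11b and Foxp3 centres were 2.57 kb apart. All 3 Bcl11b regions had the width of 198 bp that was the most frequent one among Treg-specific Bcl11b regions.

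Of the receptors, Cd5 (gene 12507, chromosome 19, 10718107 to 10739026) carried 8 regions, 6 of them upstream of the gene toward Cd6. Common to Bcl11b and Foxp3 were 5 of them. Those at 10731913 to 10732209 (6.91 kb downstream of the start) and at 10747549 to 10747996 (8.80 kb upstream) were also common to WT and Bcl11b-KO Foxp3, as was the one at 10740696 to 10741045 (1.90 kb upstream). The start-site region at 10738807 to 10739026 was lost in Bcl11b-KO cells. The most distant one, at 10757160 to 10757357 (18.3 kb upstream), was absent from the Foxp3 lists of the Bcl11b-KO comparison. The regions at 10740696 and 10757160 were listed for Bcl11b in Tn cells as well and were lost in KIKO cells. The other 3 shared regions were listed for Bcl11b in neither the Tn nor the KIKO comparison. Foxp3-only regions were the lost one at 10751701 to 10751920 (12.8 kb upstream) and the common one at 10752696 to 10753025 (13.9 kb upstream), with centres 1.05 kb apart. The region at 10742083 to 10742358, 3.25 kb upstream, was listed for Bcl11b-KO Foxp3 only.

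Cd6 (gene 12511, chromosome 19, 10789339 to 10830062) had 5 regions, and none was common to WT and Bcl11b-KO Foxp3. The regions at 10815914 to 10816133 and at 10829799 to 10830169 were lost, and those at 10818501 to 10818776, 10825481 to 10825756 and 10832077 to 10832352 were listed for Bcl11b-KO cells only. All lay inside the gene except the last, 2.15 kb outside it. Among the 512 protein-coding genes with 5 or more regions in that comparison, 9 (1.76%, 0.927 to 3.31) had no common region. Genes with 3 or more regions specific to Bcl11b-KO made up 0.434% of protein-coding genes. The neighbour Cd5 had 4 common, 2 lost and 1 Bcl11b-KO-only region. The Cd6 region at 10829799 was common to Treg and Tn for Bcl11b, but was listed as Foxp3-specific in the comparison of Bcl11b with Foxp3, so the lists conflict on Bcl11b there.

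**Figure D2:**
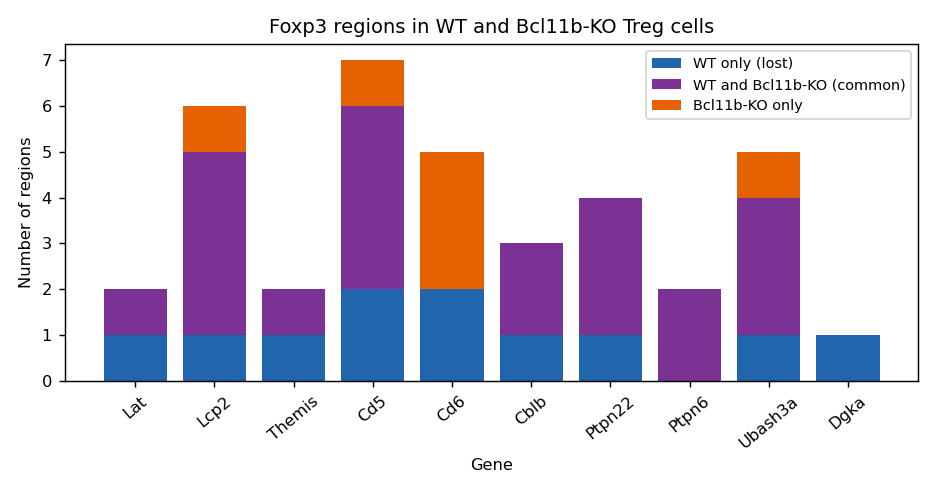
Bars give the number of regions (y axis) of each gene (x axis) listed for Foxp3 in WT cells only, in WT and Bcl11b-KO cells, and in Bcl11b-KO cells only. Cd6 has 2 lost, 0 common and 3 Bcl11b-KO-only regions, and Ptpn6 has 2 common regions and no other.

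Of the brakes inside the cell, the phosphatase gene Ptpn22 (gene 19260, chromosome 3, 103856575 to 103912252) had 4 regions. Those at 103857375 to 103857650, at 103860056 to 103860331 over the printed start, and at 103868122 to 103868452 (8.01 kb downstream) were common to Bcl11b and Foxp3. These regions were also common to WT and Bcl11b-KO Foxp3. The first of them lay inside the gene, 2.28 kb upstream of another annotated start at 103859795. The region at 103907726 to 103907945, 47.6 kb downstream near the far end of the gene, was listed for Foxp3 only and lost. The start-site region was common to Treg and Tn Bcl11b, and no Ptpn22 region was listed in the KIKO comparison. At the other phosphatase gene, Ptpn6 (gene 15170, chromosome 6, 124720707 to 124738709), both regions were common to WT and Bcl11b-KO Foxp3. The one at 124723553 to 124723782 was shared with Bcl11b and common to Treg and Tn, and the one at 124732898 to 124733242 was Foxp3-only. They lay 15.0 and 5.64 kb downstream of the start. Neither gene had a Bcl11b-KO-only region.

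Ubash3a (gene 328795, chromosome 17, 31207868 to 31259681) had 5 regions. Foxp3-only regions at 31205471 to 31205849 (2.41 kb upstream) and 31210282 to 31210760 (2.46 kb downstream) flanked the start and were common to WT and Bcl11b-KO. The start-site region between them, at 31207785 to 31208103, was lost. It was listed as Foxp3-specific against Bcl11b but as common to Treg and Tn Bcl11b, the same conflict as at Cd6. The region at 31223869 to 31224293, 16.0 kb downstream, was common to both factors, to Treg and Tn, and to WT and Bcl11b-KO. The region at 31216129 to 31216404, 8.20 kb downstream, was listed for Bcl11b-KO only.

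Cblb (gene 208650, chromosome 16, 52031230 to 52208047) was the member without Bcl11b in any of the 3 comparisons that include it. Its Foxp3-only region at 52045071 to 52045290, 13.6 kb downstream, was lost. Those at 52031300 to 52031575 (the start site) and 52033752 to 52034027 (2.34 kb downstream) were common to WT and Bcl11b-KO Foxp3 but absent from the comparison of Foxp3 with Bcl11b. Dgka (gene 13139, chromosome 10, 128720131 to 128745084) had 1 region, at 128746218 to 128746550, 1.3 kb upstream of its outermost start. It was common to Bcl11b and Foxp3, common to Treg and Tn, and lost for Bcl11b in KIKO and for Foxp3 in Bcl11b-KO cells. None of the 4 annotated Dgka start windows overlapped a region.

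**Figure D3:**
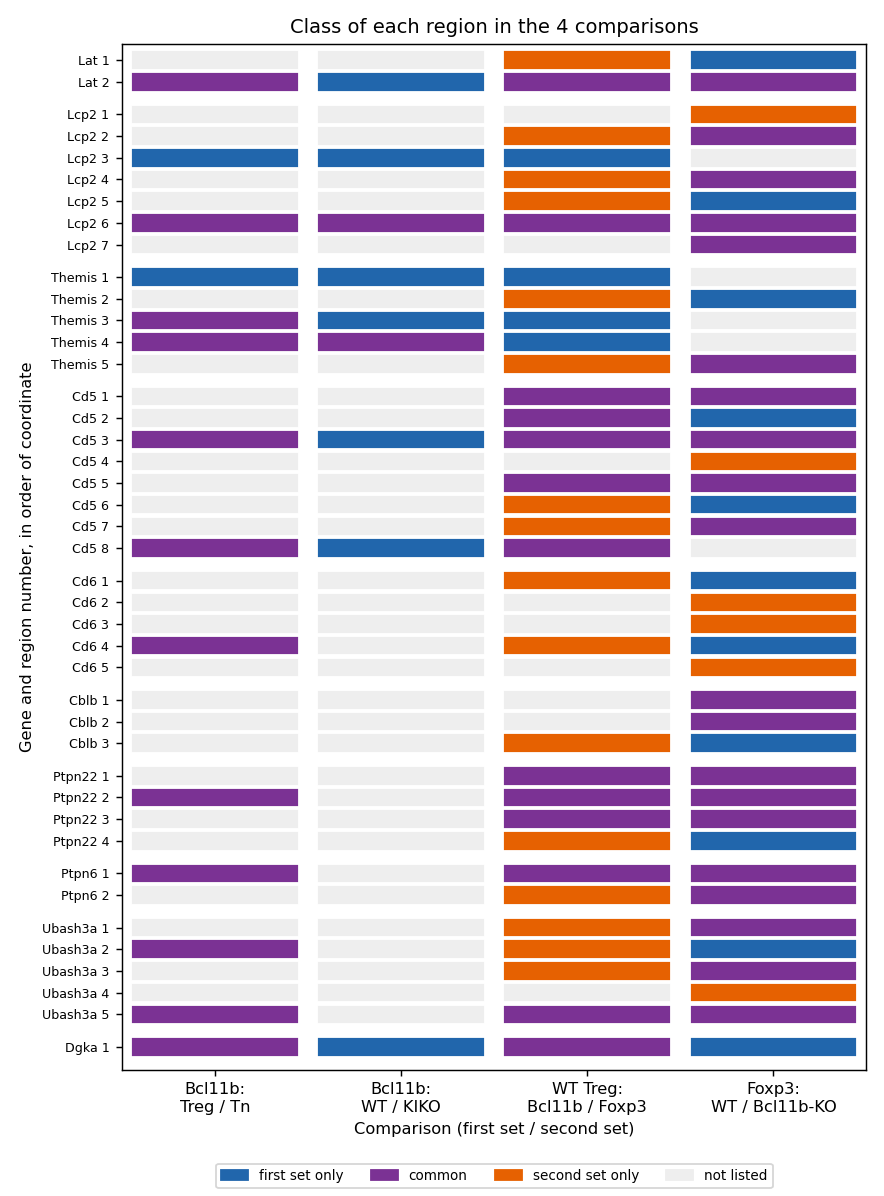
Rows are the 42 regions by gene and coordinate order, columns the 4 comparisons, and colour gives the class of the authors' lists (first set only, common, second set only, or not listed). The column for Treg and Tn holds 12 common and 2 first-set-only regions, and no region is second-set-only in the columns for Tn and KIKO.

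In the comparison of Bcl11b in Treg and Tn cells, which asks which sites belong to Treg cells, most regions of the 10 genes were listed in both cell types. Of 14 regions, 12 (85.7%, 60.1 to 96.0) were common, against 62% of the 7243 regions of the comparison. Treg-specific were 2 (14.3%, 4.01 to 39.9), at Lcp2 and Themis, against 28%. Such a region was found at 8.28% of protein-coding genes. Tn-specific were 0 (0 to 21.5%), against 10%. Each of these intervals contained the share over all regions. Both Treg-specific regions lay upstream of an adaptor gene, were listed for Bcl11b without Foxp3, and were lost in KIKO cells. Of all 2025 Treg-specific regions, 82.3% were listed for Bcl11b without Foxp3 and 86.7% were lost in KIKO cells. The last 2 traits were thus the usual ones of this class.

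In the comparison of Bcl11b in WT Treg and KIKO cells, which asks which sites persist without Foxp3, 7 of 9 regions (77.8%, 45.3 to 93.7) were lost, against 61.6% of 5713. With centres inside gene bodies only, 2 of 4 (50%) were lost. The lost regions were 2 each at Themis and Cd5 and 1 each at Lat, Lcp2 and Dgka, 5 genes in all (13.8% of protein-coding genes). The common ones, 2 (22.2%, 6.32 to 54.7, against 37.2%), were inside Lcp2 and Themis, and 0 were KIKO-specific (against 1.17%). The interval of each share contained the value over all regions. No region of Cd6, Cblb, Ptpn22, Ptpn6 or Ubash3a was in this comparison. Of the 12 regions common to Treg and Tn, 5 (41.7%, 19.3 to 68.0) were not listed here, against 26.0% of 4493, and the interval contained that value.

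When the factors were compared with each other in WT Treg cells, 13 of 33 regions (39.4%, 24.7 to 56.3) were common, against 28.3% of 16747. Over regions with WT Treg Bcl11b in all or none of its 3 comparisons and WT Foxp3 in both or neither of its 2, the shares were 4 of 22 (18.2%, 7.31 to 38.5) at the 10 genes and 15.4% of 13438 in the series. The 4 were at Lat, Lcp2, Cd5 and Dgka. Foxp3-specific were 16 (48.5%, 32.5 to 64.8, against 56.8%), and Bcl11b-specific were 4 (12.1%, 4.82 to 27.3, against 14.9%). Of the 13 common regions, 5 stood at Cd5 and 3 at Ptpn22. The 4 Bcl11b-specific ones were confined to Themis and Lcp2 among the 10 genes.

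In the Foxp3 comparison of Bcl11b-KO with WT Treg cells, which asks which Foxp3 sites persist without Bcl11b, 20 of 37 regions (54.1%, 38.4 to 69.0) were common, against 59.7% of 17673. Lost were 11 (29.7%, 17.5 to 45.8, against 27.2%), which fell at 9 genes, all but Ptpn6. A lost region was found at 17% of protein-coding genes. A common one was found at 8 of the 10 genes, all but Cd6 and Dgka, and at 32.1% of protein-coding genes. Listed for Bcl11b-KO only were 6 (16.2%, 7.65 to 31.1, against 13.1%), 3 of them at Cd6 and 1 each at Lcp2, Cd5 and Ubash3a, so at 4 genes (8.19% of protein-coding genes). Foxp3-specific regions were 9 of the 11 lost ones (81.8%, 52.3 to 94.9), against 73.6% of 4815 lost regions in the series. Of the 16 Foxp3-specific regions 9 were lost (56.2%, 33.2 to 76.9), and of the 13 regions shared with Bcl11b 2 were lost (15.4%, 4.33 to 42.2), at the Cd5 start site and at Dgka. Over all regions the shares were 37.3% of 9512 and 26.4% of 4738. The 9 include the regions of Cd6 and Ubash3a on which the lists conflict. Of the 13 shared regions, the lists agreed on both WT sets at 4, those at Lat, Lcp2, Cd5 and Dgka named above. Only the Dgka region among these was lost. The lost Cd5 start-site region was listed for WT Treg Bcl11b in 1 of 3 comparisons. Of the 14 Foxp3-specific regions with WT Treg Bcl11b in no list 7 were lost (50%, 26.8 to 73.2), against 38.0% of 9103. The intervals at the 10 genes overlap, the comparisons share the WT Foxp3 set, and the difference was not tested.

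**Figure D4:**
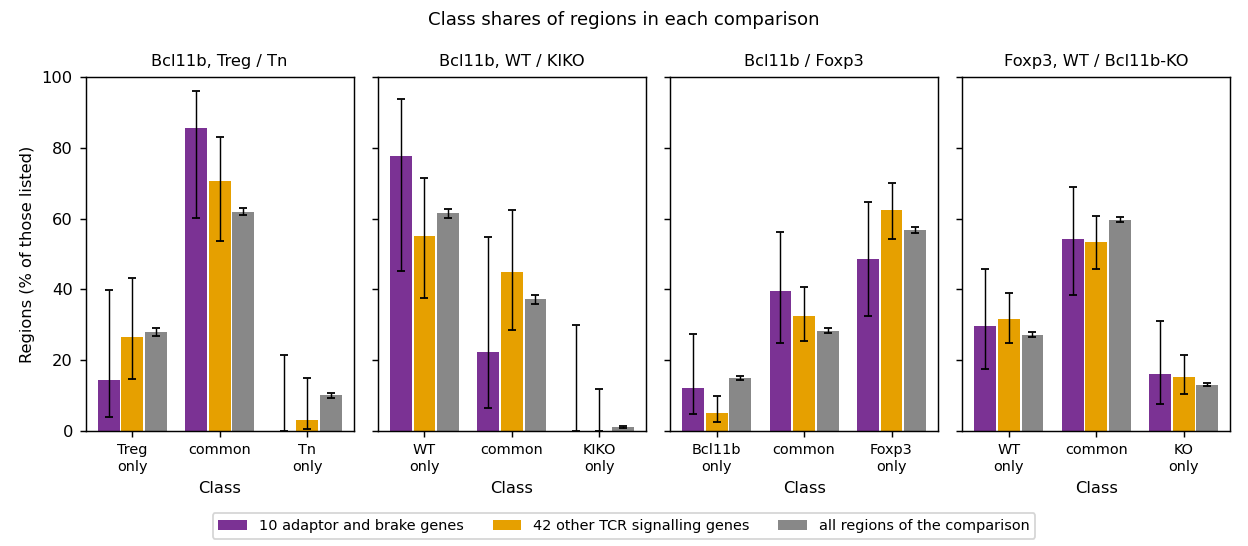
Bars give the percent of listed regions in each class (y axis) for the 10 adaptor and brake genes, for 42 other TCR signalling genes and for all regions, in the 4 comparisons, with Wilson 95% intervals. Common regions of Treg and Tn make up 85.7% (60.1 to 96.0) at the 10 genes and 62% of all regions.

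The other TCR signalling genes were a list of 42, with the kinases, adaptors, coreceptors and regulators of the pathway. Of these, 40 carried a region, 179 in all, and 33 carried WT Treg Bcl11b. In the Treg and Tn comparison 24 of 34 were common (70.6%, 53.8 to 83.2) and 9 Treg-specific. In the KIKO comparison 16 of 29 were lost (55.2%, 37.5 to 71.6). Common to Bcl11b and Foxp3 were 46 of 141 (32.6%, 25.4 to 40.7). Of 165 regions in the Bcl11b-KO comparison, 52 were lost (31.5%, 24.9 to 39.0), 88 common and 25 Bcl11b-KO-only. Most regions were carried by Dgkz, which encodes another diacylglycerol kinase, with 9. Grap2 and Grb2, adaptor genes, Prkcq, a kinase gene, Ptprc, which encodes CD45, and Ubash3b, the paralogue of Ubash3a, had 8 each. Dgkz lost none of its Foxp3 regions, with 7 common and 2 Bcl11b-KO-only, whereas Prkcq lost 6, with 1 common and 1 Bcl11b-KO-only.

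Widths, and how far the lists agreed on the WT sets, differed among the regions. All 6 Bcl11b-KO-only regions at the 10 genes were 276 bp wide, the most frequent width in that class. The 3 regions that were common to WT and Bcl11b-KO but absent from the other Foxp3 comparison, at Lcp2 and Cblb, were also 276 bp wide, as were 1801 of 1933 (93.2%) such regions in the series. For these, WT Foxp3 rests on the Bcl11b-KO comparison alone. Some regions common to Bcl11b and Foxp3 also had the most frequent width of 1 set. At Ptpn22, those at 103857375 and 103860056 had the 276 bp of Bcl11b-KO-only regions. At Cd5, the start-site one had the 220 bp of lost Foxp3 regions. The Cd5 one at 10757160 had the 198 bp of Treg-specific Bcl11b regions. A region of such a width can be a peak of that set alone, which was not tested. At 28 of the 42 regions (66.7%, 51.6 to 79.0), against 72.2% of all, the lists gave WT Treg Bcl11b in all or none of its 3 comparisons and WT Foxp3 in both or neither of its 2. WT Treg Bcl11b was listed in all 3 at 9 regions, of Lat, Lcp2, Themis, Cd5 and Dgka, in 2 at 3 and in 1 at 7. These are 21.4%, 7.14% and 16.7% of the 42, against 23.5%, 2.03% and 13.4% of all regions. The part of peak calling in these differences was not tested. Regions at cell type markers were also counted. Such counts cannot measure the purity of the cells, since only sites listed for Bcl11b or Foxp3 enter them. At least 1 region was found at 50.1% of protein-coding genes. The Treg markers Foxp3, Il2ra, Ctla4 and Ikzf2 carried 1, 8, 6 and 6 regions. The B cell markers Cd79a, Cd79b, Pax5 and Ms4a1 carried 1, at Cd79a. The myeloid markers Lyz2, Csf1r, Itgam and Cd14 carried 3, all at Itgam and Bcl11b-KO-only. The CD8 T and NK markers Cd8a, Cd8b1, Klrb1c, Ncr1, Nkg7 and Prf1 carried 5, of which 3 were Bcl11b-KO-only. Their part in the results at the 10 genes was not tested.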

How the data were processed

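Bcl11b and Foxp3 ChIP-seq covered 20 samples in 9 groups. HOMER 4.10.1, HISAT2 2.1.0, deepTools, SAMtools 1.3, Trim Galore 0.4.2, FastQC, cutadapt 1.12 and the build mm10 are named per the submitters' processing notes, which give no roles here. The authors deposited 12 region lists with 3 columns (chromosome, start, end), without signals, scores or p-values. Not given in the sources used here are the rule for specific and common, the peak threshold and any pooling. The descriptions of the third Treg Bcl11b library and, for 1 list, of the second WT Foxp3 library leave out lists that those of the other replicates name. That replicates came from separate animals is not stated.

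Repeated rows (127) were dropped, and 25 regions in 2 classes of a comparison, none of them at the 10 genes, were left out of it. Coordinates are 1-based. Gene positions came from RefSeq GRCm38.p6, ties were broken by symbol, and start sites and sequences from its promoter table, in which 9 of 10 genes matched. Exons, introns, UTRs and sequences of whole regions were not used here. The members and lists were chosen with earlier results of these data known, so no p-value was computed. Every member is named and every one of its regions given by position and class, more than the naming rule, which summarised genes with over 6 regions. Of the other TCR genes, the 6 with the most regions are named. Of the marker lists, 1 gene is not reported here. Alternatives changed gene assignment, width, distance to gene ends and handling of double classes. Assignment was tested on simulated data. Scripts used pandas 2.3.3, numpy 2.4.6, matplotlib 3.10.9 and scipy 1.17.1 under Python 3.11.15.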

Additional observations from a re-analysis of the deposited data

How the results depend on the processing

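No paired analysis was possible because the lists are made per comparison of groups and carry no replicate values. Over the alternatives, 76 class shares and total counts stayed inside the main interval or within 1.5 times the main count and 8 did not. Many of the 76 say little. A limit of 20 kb could change nothing, since the most distant member region lay 18.2 kb from its gene. Keeping double classes could not either, since no member region had them. Counting centres within 100 bp as 1 and measuring from the region edge also left every value as it was. Of the counts per gene, 32 stayed within 1.5 times the main count and a further 8 did not. All 8 came from the gene-body and 10 kb settings, the only ones that changed any count per gene. With centres inside gene bodies only, Treg-specific regions fell to 0% and common ones rose to 100% in the Tn comparison, because both Treg-specific regions lie upstream. The share of Bcl11b regions lost in KIKO cells then went from 77.8% to 50% (2 of 4), inside the main interval. Among the 16 regions wider than 276 bp, the values were again 0% and 100%, while common Foxp3 regions reached 75% and Bcl11b-KO-only ones 0% in the Bcl11b-KO comparison, since all 6 of the latter are 276 bp wide. With only regions on which the lists agree, an alternative chosen after the data were seen, regions common to Bcl11b and Foxp3 were 18.2%. That is below the main interval of 24.7 to 56.3. By gene body alone Cd5 had 2 regions, Lcp2 4, Themis 3 and Dgka 0. With 10 kb on each side of the body, nearest or not, Cd5 had 5, Ptpn22 7, Ptpn6 5 and Dgka 3. The planned motif search in a narrower window at region centres was not run, since region sequence was not used here. The small numbers of regions, 9 to 37 in a comparison, limit every share.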

Other observations

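Within 10 kb of the 10 gene bodies lay 10 further regions whose centres were nearer to another gene. Next to Lat, 7.76 kb away, the region at 126377315 to 126377613 of chromosome 7 inside Spns1 was common in all 4 comparisons. Around Ptpn6 stood 3 such regions. The one inside Emg1, at 124712026 to 124712323 of chromosome 6, was lost for Bcl11b in KIKO and for Foxp3 in Bcl11b-KO cells, the same classes as the Dgka region. The one next to Grcc10, at 124740888 to 124741257, was common to Bcl11b and Foxp3 and lost in Bcl11b-KO cells, and lay 2.36 kb from Ptpn6, whose own regions were both common. The third, inside Atn1 at 124745420 to 124745771, was common in the Tn, KIKO and Bcl11b-KO comparisons but Foxp3-specific against Bcl11b. Near Ptpn22 were 3 Foxp3-only regions, 2 inside Bcl2l15, common to WT and Bcl11b-KO, and 1 inside Rsbn1, lost. Next to Dgka, the region inside Pmel at 128716170 to 128716545 and that inside Pym1 at 128750197 to 128750472 of chromosome 10 were Bcl11b-KO-only, although the first was Foxp3-specific where Foxp3 and Bcl11b were compared in WT cells. Next to Cd6, the region nearest to Slc15a3 at 10839056 to 10839275 of chromosome 19 was Foxp3-only and common to WT and Bcl11b-KO, the class that no Cd6 region had.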
